A study of Arabidopsis thaliana with 20 samples.

Results

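The set described here holds 150 nuclear transcripts of Arabidopsis thaliana flower buds whose level after capture of NAD-capped RNA was above their level in both total RNA and polyA RNA. Counts were scaled to CPM (count per 1000000 nuclear counts of the library, that is over the genes of chromosomes 1 to 5), and the set was drawn from the 14839 of 28496 nuclear genes that reached 5 CPM in each of the 4 polyA libraries, called the floor below. For each gene the mean CPM of the capture libraries was divided by that of total RNA and by that of polyA RNA, in Col-0 and in dxo1, with 0.5 added to each mean. All 4 ratios were 2 or more for 319 genes, or 2.15% of those at the floor, and the 150 with the highest smallest ratio are the members. They were thus chosen by their NAD capture, total RNA and polyA levels, and GMUCT and small RNA values had no part in the choice. The other 14689 genes at the floor serve as the comparison.

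Some RNAs carry nicotinamide adenine dinucleotide (NAD) in place of the usual guanosine cap at the 5′ end, because a polymerase can begin a transcript with NAD. Enzymes of the DXO family, which includes plant DXO1, remove such caps and expose the RNA to exonucleases. RDR6 copies RNA into double strands, from which Dicer-like enzymes cut short silencing RNAs.

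The samples were unopened flower buds of plants aged about 4 weeks, grown in 16 h of light and 8 h of dark, and each group had 2 libraries. Col-0, labelled wildtype, and the mutant dxo1 were each measured by NAD capture, as total RNA and as polyA RNA. GMUCT, which sequences RNA with a free 5′ monophosphate and so records decay and cleavage products, was measured in dxo1 alone. Small RNA was measured in Col-0, dxo1 and the double mutant dxo1 rdr6, so both mutant groups carry dxo1. Nothing in the labels states whether paired libraries stem from separate plants; p-values below therefore measure the spread between these libraries, which may be technical. A bud is a mixture of cell types, and in bulk RNA fewer cells of a type and less RNA per cell cannot be told apart.

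Nuclear and organellar genes together received 1144896 to 3178702 counts per NAD capture library, 2576448 to 8309456 per total RNA library and 10100250 to 16833010 per polyA library. GMUCT held 30883266 and 19769742, and small RNA 137603 to 4087476. Nuclear genes alone made up a smaller part in the first Col-0 capture library (710778 of 1144896) than in the second (1544139 of 1807082). In dxo1 capture they held 2692009 of 3178702 and 1394818 of 1644104. In this part the first Col-0 capture library lay near Col-0 total RNA, at 3397663 of 5407850 and 1642423 of 2576448. The cause was not tested, and each Col-0 capture mean includes that library. The target of the mutation, DXO1, went against the label in 1 replicate. In total RNA it stood at 45.3 and 39.6 CPM in Col-0, at 815 CPM in the library labelled dxo1 replicate 1 and at 14.6 CPM in replicate 2, and in polyA RNA it stood at 49.3 and 49.7 CPM against 518 and 19.5 CPM. GMUCT gave 1568 and 20.1 CPM in the libraries labelled dxo1 replicates 1 and 2. Small RNA on DXO1 stood at 22.9 and 21.3 CPM in Col-0, at 4618 CPM (16739 counts) in the library labelled dxo1 replicate 1, at 36.3 CPM (5 counts) in replicate 2, and at 5.03 and 7.73 CPM in dxo1 rdr6. In NAD capture the 4 libraries lay between 16.9 and 39.5 CPM. Below, "dxo1" stands for libraries so labelled, and counts of calls are also given without the replicate 1 libraries. For such alternative fits the share of all genes called is not given, so those counts have no background beside them. RDR6 stood at 26.9 to 30.6 CPM in the 4 polyA libraries.

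The rule turned on capture, so the capture values are a description without a test. The median member stood 4.97-fold higher in NAD capture than in total RNA in Col-0 and 6.53-fold in dxo1, and 3.14-fold and 3.89-fold higher than in polyA RNA. For the other genes at the floor the medians were 0.976, 1.12, 0.817 and 0.898. PolyA RNA was the closer reference for most members: the smallest ratio was capture over polyA RNA in Col-0 for 98 of the 150 and in dxo1 for 33, against 14 and 5 for capture over total RNA. Ratios were larger in dxo1 than in Col-0 for 107 members over total RNA and for 111 over polyA RNA. The medians of the other genes, given above, were larger in dxo1 as well. The share of those genes with a larger ratio in dxo1 is not given, and these ratios chose the members. Nothing particular to the members is therefore read from these 2 counts. The smallest ratio ran from 22.7 down to 2.465, with a median of 2.909. Just inside the limit stood AHP5, a phosphotransfer protein of cytokinin signalling, at 2.471, and AT1G27350 and SDH4, a subunit of succinate dehydrogenase, at 2.465. Just outside stood AT1G52720 and AT4G13230 at 2.464 and AT5G52990 at 2.458.

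Because the rule used means, the libraries were also compared one by one. Both Col-0 capture libraries lay above all 4 Col-0 reference libraries for 134 of 150 members (12.9% of all genes at the floor), and both dxo1 capture libraries above all 4 dxo1 references for 150 of 150 (27.6%). Together the members took 1.95 to 2.50% of nuclear counts in NAD capture. In total RNA that share was 0.224 to 0.334%, and in polyA RNA 0.408 to 0.558%. The Col-0 capture libraries differed from each other more than the dxo1 ones: 67 members (44.67%) were at least 2-fold higher in Col-0 replicate 2 than in replicate 1 and 12 (8%) were the reverse, whereas in dxo1 the numbers were 1 and 0. The other genes at the floor leaned the same way in Col-0, with 24.3% at least 2-fold higher in replicate 2 and 6.815% the reverse. Total RNA limited the precision, since 44 members had fewer than 10 counts in at least 1 total RNA library and 9 had fewer than 10 in a capture library.

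**Figure D1:**
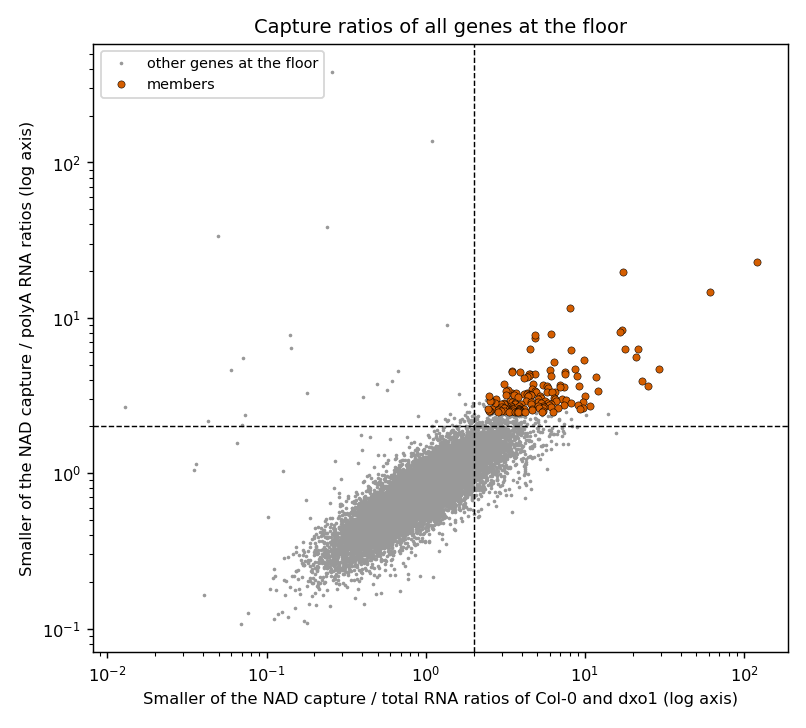
Ratio of mean NAD capture CPM to mean total RNA CPM (horizontal axis) and to mean polyA RNA CPM (vertical axis), both log scaled with 0.5 CPM added to each mean. On each axis the smaller of the Col-0 and dxo1 ratios is shown, and each point is 1 gene. Coloured points are the 150 members and grey points the other 14689 genes at the floor. By the rule every member lies at or above 2.465 on both axes.

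The 4 highest smallest ratios belonged to non-coding RNAs, 3 of them small nucleolar. Small nucleolar RNAs (snoRNAs) guide chemical modification and processing of ribosomal RNA, and 3 of the 6 annotated snoRNAs at the floor were members. AT1G03743, with a gene span of 81 bp, stood at 2946 and 686 CPM in Col-0 capture and at 351 and 369 CPM in dxo1 capture. In total RNA it stood at 1.47 and 3.04 CPM in Col-0 and 2.73 and 2.28 CPM in dxo1, and in polyA RNA at 27.8 and 30.4 CPM and at 17.9 and 12.9 CPM. Its 4 capture libraries thus lay far above all 8 references, with a smallest ratio of 22.7. AT2G05765, spanning 79 bp, stood at 879 and 240 CPM in Col-0 capture and 136 and 171 CPM in dxo1 capture, against 0.294 and 0.609 CPM and 1.95 and 2.09 CPM in total RNA. Its polyA values were 12.4, 11.2, 9.71 and 10.5 CPM, giving a smallest ratio of 14.6. AT3G47348, spanning 85 bp, stood at 632, 139, 86.9 and 102 CPM in the 4 capture libraries, and its smallest ratio was 8.41. In all 3 snoRNAs the first Col-0 capture library was the highest of the 4.

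The long non-coding RNA AT5G15022 ranked between them, at 1072 and 284 CPM in Col-0 capture, 230 and 181 CPM in dxo1 capture, and 6.18 to 12.4 CPM in the 8 reference libraries, with a smallest ratio of 17.4. The non-coding RNAs AT1G18745 and AT3G07215 had smallest ratios of 8.02 and 5.39. AT5G15022 and AT1G18745 each overlap 4 other annotated genes, and the sources used here do not give the strand setting of the counting, so reads of a partner may be counted in them. The last non-coding member named here, MIR162a, is the precursor gene of miR162, which targets DCL1, the Dicer-like enzyme of microRNA maturation. It stood at 21.1 and 33.0 CPM in Col-0 capture and 26 and 20.1 CPM in dxo1 capture, against 7.88 and 7.19 CPM and 5.53 and 6.65 CPM in polyA RNA. In all, 8 of the 150 members (5.33%) were non-coding, against 94 of the 14839 genes at the floor (0.634%), and the other 142 were protein-coding.

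**Figure D2:**
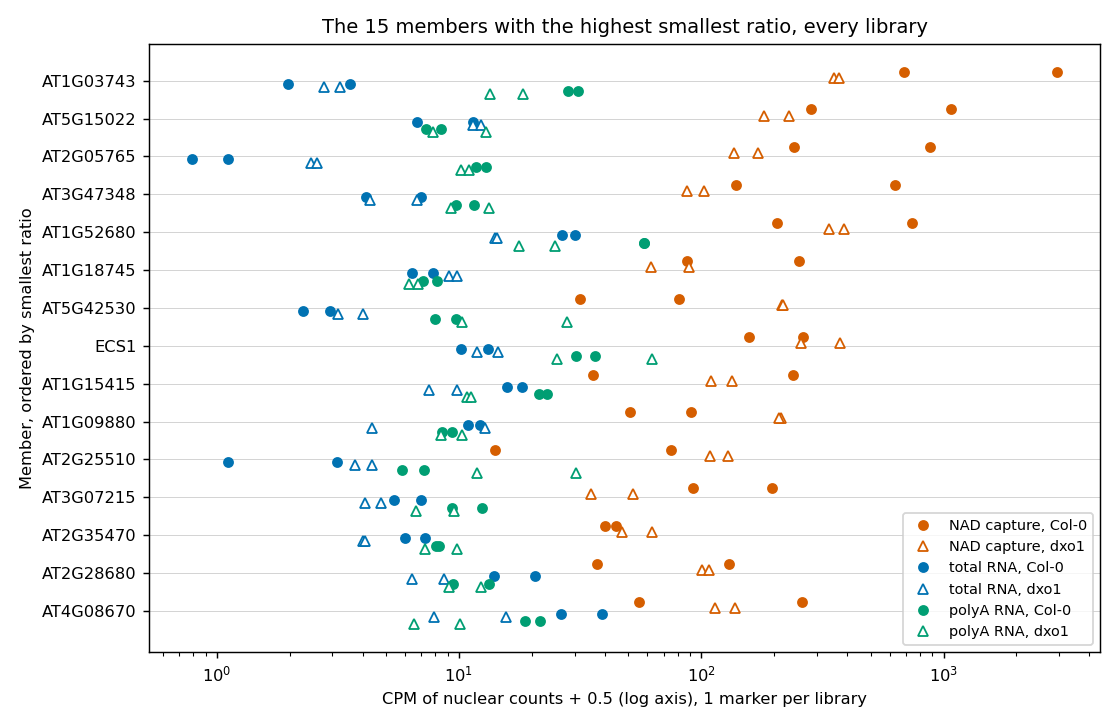
CPM (log scale) of the 15 members with the highest smallest ratio in each NAD capture, total RNA and polyA RNA library of Col-0 and dxo1; each point is 1 library. AT1G03743 reaches 2946 CPM in Col-0 capture and 369 CPM in dxo1 capture, and the spread between the 2 Col-0 capture libraries is visible for several genes.

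Among protein-coding members the highest smallest ratio belonged to AT1G52680, at 8.14. It stood at 204 and 740 CPM in Col-0 capture and 338 and 389 CPM in dxo1 capture, against 29.7 and 26.2 CPM and 13.6 and 13.9 CPM in total RNA and 57.7, 57.5, 24.5 and 17.1 CPM in polyA RNA. AT5G42530 and ECS1, which encodes a cell wall protein, followed at 6.34 and 6.30. ECS1 read 262, 157, 374 and 258 CPM in the capture libraries and 9.74 to 14.0 CPM in total RNA, so capture and total RNA did not overlap, and the highest of its polyA values was 62.2 CPM. The remaining protein-coding genes of the 15 highest ratios were AT1G15415, AT1G09880, AT2G25510, AT2G35470, AT2G28680 and AT4G08670, at 6.19 down to 4.83. No symbol was given for 101 members (67.3%), against 52.8% of all genes at the floor.

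Named members served several roles. RAT5, a histone H2A gene, had a smallest ratio of 4.50, and its capture values of 59.1, 110, 82.8 and 107 CPM all lay above its highest polyA value of 20.1 CPM. ATG8C, a ubiquitin-like protein of autophagy, read 74.6, 156, 114 and 77.4 CPM in capture and 20.7 to 26.4 CPM in polyA RNA. GAD5, of the glutamate decarboxylase family, and SWEET8, a sugar transporter needed for the pollen wall, had smallest ratios of 4.49 and 4.33. SWEET8 read 26.7 and 106 CPM in the Col-0 capture libraries, so its Col-0 ratio rests mostly on the second. BZIP60, a transcription factor of the unfolded protein response, was near the end of the list at 2.61. CPM is not corrected for length, so levels are compared between libraries of a gene and not between genes.

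Members had shorter gene spans than the rest, on the RefSeq annotation of assembly TAIR10.1, where a span includes introns. The median span of the protein-coding members was 1652 bp (quartiles 1123 and 2259 bp) against 2605 bp (1922 and 3583 bp) for the other protein-coding genes at the floor. Of the 142, 29 (20.4%) spanned less than 1000 bp, against 2.82% of the others. When the protein-coding genes at the floor were split by span into 4 bins of equal size, 5.24% of the bin of shortest genes had every ratio at 2 or more, then 1.82%, 0.842% and 0.489% of the bin of longest genes, and the bins held 91, 27, 14 and 10 members. The part of length in the ratios was not tested. Another annotated gene overlapped 29.3% of members and 33.2% of the other genes at the floor. There were 3 pairs of adjacent members: AT3G01240 with AT3G01250, AT4G15620 with AT4G15630, and AT5G13430 with AT5G13440. The members of such a pair may share reads, so their separate values are uncertain.

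The lists of pathway genes, also chosen with earlier results known, were read against the share of 2.15% of all genes at the floor with every ratio at 2 or more. Of 24 nuclear photosystem genes, 3 had every ratio at 2 or more and 2 were members, PSBX and PSBW, small subunits of photosystem II, and the median smallest ratio of the list was 1.09 against 0.7 for the others at the floor. Of 18 light-harvesting and Rubisco genes only RBCS2B, a Rubisco small subunit, was a member, and the list median was 0.536. RBCS2B read 462, 1370, 996 and 822 CPM in capture and 350, 357, 186 and 212 CPM in polyA RNA, so in Col-0 capture replicate 1 lay just above both polyA libraries and replicate 2 far above them. RCI2A, a small membrane protein gene induced by cold, was the single member from 12 cold and abscisic acid genes at the floor. It read 99.9, 233, 105 and 97.5 CPM in capture, 1.71 to 4.28 CPM in total RNA and, as polyA RNA, 16.3 to 36.7 CPM, without overlap. AGP1, an arabinogalactan protein of the cell surface, was the single member from 11 such genes at the floor. Of these 11, 2 (18.2%) had every ratio at 2 or more, and the median smallest ratio was 1.55. The median of the cold and abscisic acid list was 1.15. No member came from the lists of superoxide dismutases (7 genes at the floor), small RNA pathway (21), RNA decay (14), floral organ identity (13), tapetum (16) and late pollen (3); no gene of the root hair list reached the floor. The genes of these lists with the highest smallest ratio were MSD1, a mitochondrial superoxide dismutase, at 1.07, AGO5 at 0.845, FRY1 at 0.790, STK at 1.75, A9 at 1.55 and AGP6 at 1.55.

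GMUCT gave a measure of 5′ monophosphate ends that the rule had not used, in dxo1 alone. The GMUCT tables listed 143 members, and the 7 members not listed were all non-coding. The members took 0.894% and 0.762% of nuclear GMUCT counts. The median member stood at 21.3 and 19.6 CPM in the libraries labelled replicates 1 and 2, and the median of the other genes at the floor at 29.1 and 30.6 CPM. Relative to polyA RNA of dxo1, whose libraries entered the rule as a denominator, the order turned: the median log2 ratio of GMUCT to polyA CPM was 0.24 and 0.33 in members and -0.25 and -0.13 in the others. GMUCT was at least 2-fold above polyA RNA in both replicates for 39 of the 143 (27.3%), against 11.7% of all genes at the floor, and at least 2-fold below in both for 18 (12.6%), against 16.8%. A low polyA level raises both the capture ratio that chose the members and the GMUCT ratio, so these 2 measures are not independent.

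In the edgeR fit of GMUCT over polyA RNA, 69 of 143 members were higher and 34 lower (64.8% of all genes tested were called, 32.7% higher and 32.0% lower), from which nothing is read for the reason just given. Without the replicate 1 libraries 71 were higher and 39 lower. The members with the most GMUCT counts were AT3G10020, at 1041 and 381 CPM beside 72.5 and 44.7 CPM in polyA RNA of dxo1, AT4G32020, at 801 and 1092 CPM beside 128 and 89.0 CPM, and AT3G23450, at 844 and 886 CPM beside 286 and 443 CPM. J8, a J-domain protein of the chloroplast, read 424 and 257 CPM beside 77.8 and 53.1 CPM. These members were thus several-fold higher in GMUCT than in polyA RNA in both replicates, apart from AT3G23450, where the gap was smaller. FUS5, a subunit of the COP9 signalosome, which regulates protein degradation, read 219 and 181 CPM in GMUCT beside 40.2 and 43.9 CPM. ERD7 was the fifth by mean GMUCT level, with a mean of 316 CPM.

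At the low end stood ADF10, a pollen factor that disassembles actin filaments, at 1.15 and 0.924 CPM, AT5G53820, at 1.48 and 1.59 CPM, and GRF12, a 14-3-3 protein gene, at 1.90 and 2.1 CPM beside 14.1 and 13.8 CPM in polyA RNA. AT1G18280 and AT5G06190 completed the 5 lowest, at 2.1 to 3.41 CPM. AT5G38760 read 9.87 and 7.08 CPM in GMUCT beside 69.1 and 45.2 CPM in polyA RNA. High capture therefore went with GMUCT levels from 0.924 to 1092 CPM across members. GMUCT levels of a member differed little between the replicates relative to that range, with a correlation of log2 levels across the 143 members of 0.972, a description over genes of 2 libraries.

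**Figure D3:**
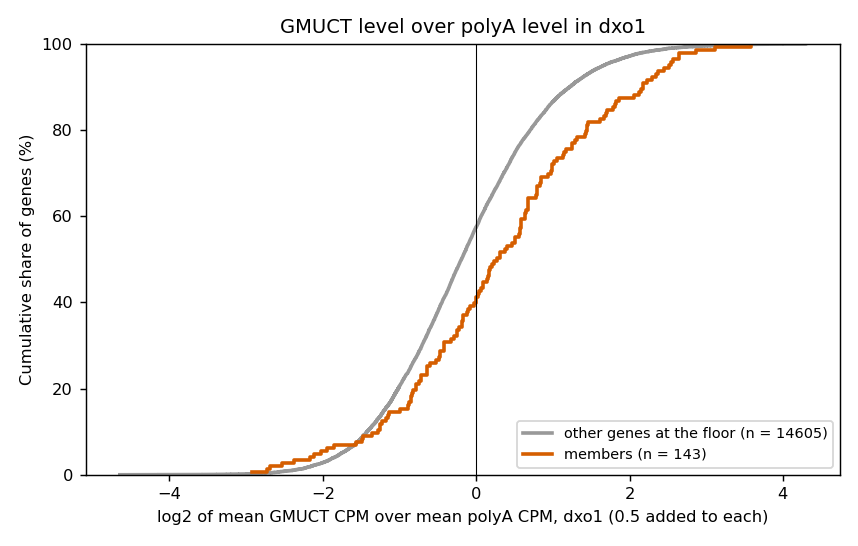
Cumulative share of genes by log2 of mean GMUCT CPM over mean polyA CPM in dxo1, with 0.5 added to each, for 143 members and the other genes at the floor listed in GMUCT. The curve of the members lies to the right of that of the others above a log2 ratio of about -1, and their median log2 ratios were 0.24 and 0.33 in the replicates.

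The genotypes were compared by the quasi-likelihood test of edgeR, with p adjusted after Benjamini and Hochberg over all genes tested and a threshold of 0.05. All 8 contrasts of the report were two-sided. All 12 libraries of the first 4 contrasts also entered the rule, which asked for capture in both genotypes. In NAD capture 3 of 150 members were higher in dxo1 and 0 lower (0.756% of genes tested were called, 0.0677% higher and 0.689% lower). An unadjusted edgeR p under 0.05 was seen for 35 members, against 3143 of the 17718 genes tested. GRP3S, which encodes a glycine-rich protein, read 95.7 and 77.7 CPM in Col-0 capture and 421 and 531 CPM in dxo1 capture, without overlap. Its log2 fold change was 2.25 ± 0.339 (SE, approximate, n = 2 libraries per group; edgeR adjusted p = 0.0287). GR-RBP3, a glycine-rich RNA-binding protein gene, rose from 115 and 150 CPM to 367 and 351 CPM, by 1.25 ± 0.241 on the log2 scale (edgeR adjusted p = 0.0486). AT5G04050 rose from 25.3 and 40.8 CPM to 135 and 108 CPM, by 1.68 ± 0.271 (edgeR adjusted p = 0.0334). These calls were not stable: they were lost in 6 (GRP3S), 9 (GR-RBP3) and 8 (AT5G04050) of 14 alternatives, and with the libraries labelled dxo1 replicate 1 left out 0 members were called.

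In total RNA 30 members had an unadjusted edgeR p under 0.05, against 2575 of the 17718 genes tested. GRP3S was the 1 member called higher in dxo1 and 0 were lower (0.988% of genes tested were called, 0.406% higher and 0.581% lower). It read 2.36 and 4.26 CPM in Col-0 and 23 and 13.1 CPM in dxo1, a log2 change of 2.55 ± 0.464 (edgeR adjusted p = 0.039) that was lost in 9 of 14 alternatives. In polyA RNA it rose too, from 18.3 and 25.5 CPM to 97.0 and 80.2 CPM, so the RNA was more abundant in dxo1 with and without capture. GRP3S has close relatives in the genome, among which reads may be split. The capture effect itself is capture relative to total RNA on the log2 scale. It was not called different between genotypes for any member with edgeR (0.0% of genes tested) nor with DESeq2. The unadjusted edgeR p was under 0.05 for 22 members, against 1332 of the 17718 genes tested. In simulated counts with an assumed spread, this edgeR test recovered 6% of planted 2-fold and 32% of planted 4-fold differences. The lack of calls therefore does not show that capture was equal in the genotypes. The lowest adjusted p of a member was 0.481 with edgeR, and without the replicate 1 libraries 0 members were called as well.

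PolyA RNA gave most of the calls between genotypes. Of the 150 members, 44 were called, 9 higher and 35 lower in dxo1 (30.1% of genes tested were called, 15.6% higher and 14.5% lower). The share called was thus that of all genes, while 6.0% of members were higher and 23.3% lower; the difference between these splits was not tested. A change of at least 2-fold was seen in 15 of the lower and 2 of the higher members. The share of all genes tested that passed this fold limit is not given, so the 2 counts have no background beside them. The lower members included AT3G01240, which fell from 126 and 145 CPM to 39.4 and 22 CPM, by a log2 change of -2.16 ± 0.227 (edgeR adjusted p = 0.00169). AT4G02250 fell from 51.0 and 50.3 CPM to 16.0 and 9.57 CPM (-1.99 ± 0.193; edgeR adjusted p = 0.00137), and AT1G52680, the protein-coding gene with the highest smallest ratio, by a log2 change of -1.48 ± 0.15 (edgeR adjusted p = 0.00153). In each of these the libraries of the genotypes did not overlap, and the second dxo1 library was lower than the first.

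GRF12 fell from 30.1 and 31.5 CPM to 14.1 and 13.8 CPM, a log2 change of -1.16 ± 0.109 (edgeR adjusted p = 0.00134). AT5G38760 fell from 167 and 164 CPM to 69.1 and 45.2 CPM (-1.55 ± 0.172; edgeR adjusted p = 0.00196). LCR17, a defensin-like peptide gene, read 60.2 and 63.9 CPM in Col-0 and 19.6 and 9.77 CPM in dxo1. In polyA RNA 10 members kept their call in every alternative run: these 6 (AT3G01240, AT4G02250, AT1G52680, GRF12, AT5G38760 and LCR17), PGA4, a pollen polygalacturonase that loosens cell walls, AT3G01250, AT1G15415 and GRP3S.

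The 9 higher members were led by GRP3S, with a log2 change of 1.99 ± 0.165 (edgeR adjusted p = 0.00102). FUS5 rose from 30.8 and 29.1 CPM to 40.2 and 43.9 CPM, HB2, a plant hemoglobin, from 8.46 and 7.49 CPM to 12.7 and 12.9 CPM, and FKF1, a blue-light receptor of flowering time control, from 8.63 and 9.67 CPM to 14.7 and 13.7 CPM. These are changes of 0.48 to 0.67 on the log2 scale, with edgeR adjusted p between 0.0149 and 0.0212. AT2G25510 rose by 1.78 ± 0.419 (edgeR adjusted p = 0.0204), with 29.9 and 11.4 CPM in the dxo1 libraries against 6.70 and 5.32 CPM.

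In the separate total RNA libraries, 34 of the 35 lower members had a negative fitted log2 change, with a median of -0.91, and in NAD capture 32 did, with a median of -0.61, though none passed the test there. Of the 9 higher members, 7 had a positive change in total RNA and 9 in NAD capture. The matching shares for other genes called in polyA RNA are not given, and these libraries also entered the rule. The counts therefore describe the members and do not set them apart. The number of polyA calls rested on single libraries. Without Col-0 replicate 1 there was 1 higher and 10 lower, without Col-0 replicate 2 there was 1 higher and 16 lower, and without the libraries labelled dxo1 replicate 1 and replicate 2 there were 14 and 53, and 25 and 46. DESeq2 called 4 higher and 29 lower.

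**Figure D4:**
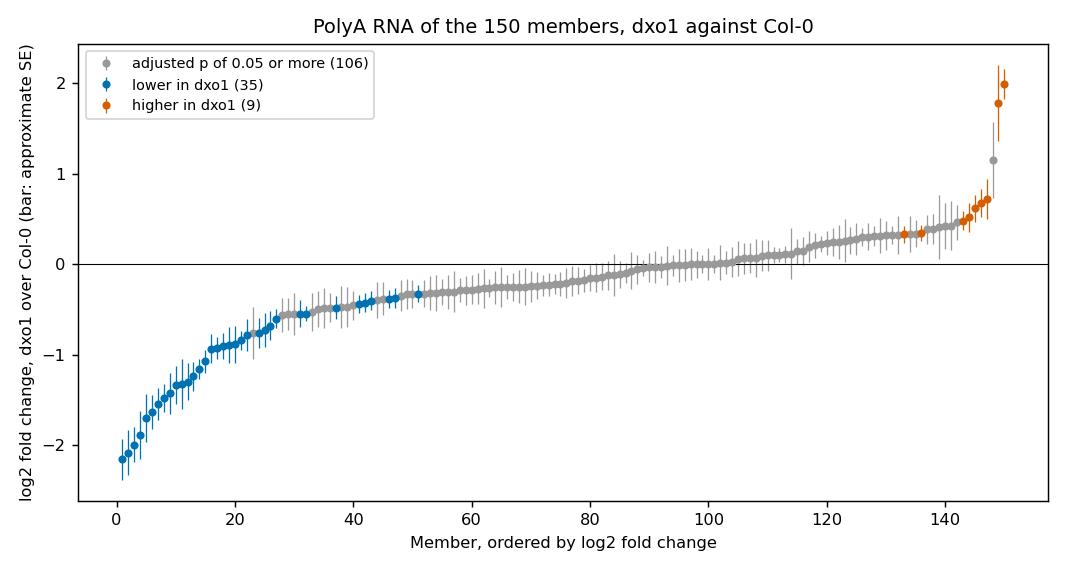
Fitted log2 fold change of polyA RNA, dxo1 over Col-0, for the 150 members, ordered by that change. Each point is 1 member and bars are the approximate SE. Colours mark the 9 members called higher in dxo1, the 35 called lower and those not called. The highest change is that of GRP3S, at 1.99 ± 0.165, and the lowest that of AT3G01240, at -2.16 ± 0.227.

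Markers of anther cells moved in the same libraries. The tapetum is the layer that feeds developing pollen, and its 4 markers (A9, GRP17, EXL6 and LAP6) summed to 2573 and 2777 polyA CPM in Col-0 and to 1305 and 610.7 CPM in the libraries labelled dxo1 replicates 1 and 2. Most of that sum is GRP17, and LAP6 did not share the lower level, at 119.9 and 134.2 CPM in Col-0 and 136.8 and 139.3 CPM in dxo1. The 4 late pollen markers (ANX1, ANX2, VGD1 and BUPS1) summed to 501.1 and 499.5 CPM against 184.8 and 88.42 CPM, with BUPS1 at 0. The 8 markers of floral organ identity summed to 1454 and 1490 CPM in Col-0 and to 1727 and 1798 CPM in dxo1, where SEP3 went from 327.4 and 342.6 CPM to 659.5 and 761.6 CPM while AP1, AP3 and PI were lower in both dxo1 libraries than in both Col-0 libraries. The 4 root markers, with EXPA7 and RSL4 at 0, summed to 7.251 to 18.07 CPM. In NAD capture the 4 tapetum markers summed to 1610 and 2548 CPM in Col-0 and to 740.3 and 792.2 CPM in dxo1. Replicate 2 of Col-0 capture was thus the higher in these markers, and in the late pollen sum (343.3 and 521.3 CPM). It was also higher in PI (253.2 and 691.6 CPM) and AP3 (144.9 and 355.5 CPM), but the organ identity gene STK read 40.8 and 38.21 CPM. The pollen genes AGP6 (104.1 and 81.6 CPM) and AGP11 (122.4 and 65.41 CPM) were lower in replicate 2. The gap was thus neither confined to tapetum and pollen genes nor shared by all of them. Of the 35 members lower in polyA RNA, 27 (77.1%) were at least 2-fold higher in Col-0 capture replicate 2 than in replicate 1. The matching numbers were 4 of the 9 higher members (44.44%) and 36 of the 106 not called (34.0%). Of the other genes at the floor lower in polyA RNA, 32.9% were. The part of anther content in this gap or in the fall of the 35 members was not tested.

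Small RNA, which the rule had not used, was given for a transcript model of 143 members, with CPM over all transcripts of a table. The median member stood at 3.96 CPM, averaged over the 6 libraries, against 5.93 CPM for the other genes at the floor, 31 (21.7%) reached 10 CPM against 29.1%, and 3 (2.1%) reached 100 CPM against 1.41%. The library labelled dxo1 replicate 2 held 360 counts on members in all, which limits what it shows of single genes. In both dxo1 rdr6 libraries every nonzero count was even, against 35.7 to 48.4% in the other 4 small RNA libraries. The cause was not tested, and the intervals below use halved counts for these libraries.

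Length set the dxo1 rdr6 libraries apart as well. Of the small RNA counts on members, 25 nt reads, the longest class in the tables, made up 16.1% (95% Wilson interval 14.8 to 17.5) and 15.03% (14.3 to 15.9) in Col-0, 18.0% (17.1 to 18.9) and 25.8% (21.6 to 30.6) in dxo1, and 92.4% (91.2 to 93.4) and 85.6% (84.0 to 87.0) in dxo1 rdr6. These intervals cover counting error only. The class of 24 nt, the length of small RNAs that direct DNA methylation, made up 50.9% and 50.1% in Col-0, 38.1% and 30.0% in dxo1, and 2.52% and 6.44% in dxo1 rdr6. The lower share in dxo1 than in Col-0 was not confined to members. Among the other genes at the floor it was 25.1% and 27.97% in Col-0 and 21.26% and 15.65% in dxo1. Over all transcripts it was 55.29% and 55.86% in Col-0 and 50.65% and 43.84% in dxo1. The strand marked f in the tables held 57.4 to 70.3% of member counts in Col-0 and dxo1 and 96.6% and 94.3% in dxo1 rdr6. Among the other genes at the floor, 25 nt reads made up 43.8% and 34.8% in Col-0 and 98.0% and 97.2% in dxo1 rdr6, so their high share there was not confined to members. The f strand held 71.9% and 67.3% of the others' counts in Col-0 and 72.9% and 81.2% in dxo1 rdr6, below the members' shares in dxo1 rdr6; the difference was not tested.

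**Figure D5:**
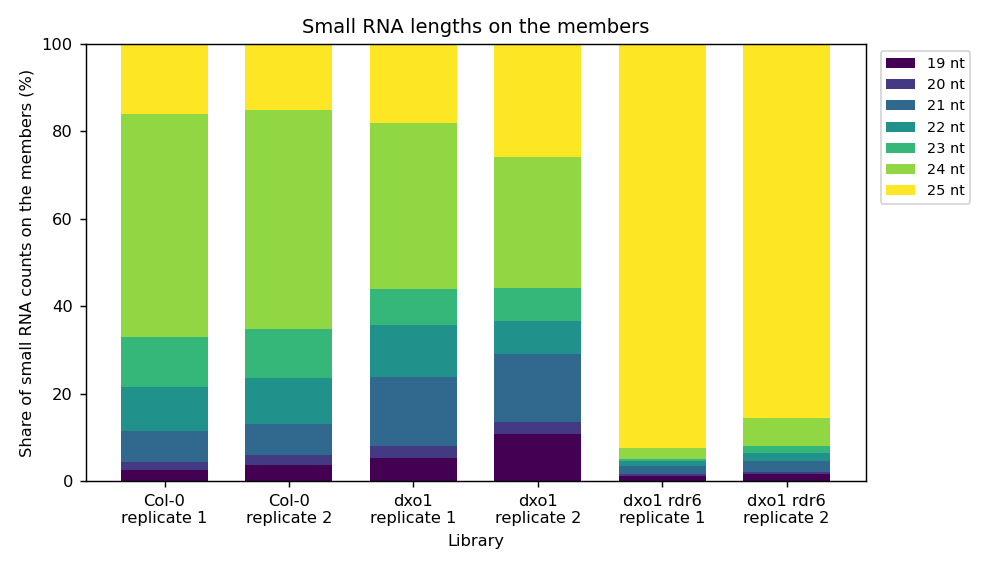
Share of small RNA counts on members by read length (nt), in percent, for each of the 6 small RNA libraries. Reads of 24 nt make up 50.9% and 50.1% in Col-0, and reads of 25 nt make up 92.4% and 85.6% in dxo1 rdr6.

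Most of the 24 nt reads came from AT4G10890 and AT1G35320. AT4G10890 stood at 923 and 937 CPM in Col-0, 563 and 654 CPM in dxo1, and 16.5 and 30.9 CPM in dxo1 rdr6, with 66.7 to 72.8% of its counts at 24 nt and 53.8 to 58.9% on the f strand in Col-0 and dxo1. AT1G35320 stood at 257 and 274 CPM, 270 and 334 CPM, and 36.6 and 67.0 CPM, with 24.2 to 30.4% on the f strand in Col-0 and dxo1. Both therefore carried reads of both strands. Without these genes, 24 nt reads made up 12.8% of member counts in each Col-0 library and 9.997% and 7.59% in dxo1.

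Of the members, 106 were tested for small RNA. Between dxo1 and Col-0, 1 was higher and 1 lower (5.31% of transcripts tested were called, 2.3% higher and 3.0% lower). AT4G31980 fell from 60.0 and 78.8 CPM to 18.5 and 21.8 CPM, by a log2 change of -2.76 ± 0.456 (edgeR adjusted p = 4.7e-04), and read 2.87 and 3.22 CPM in dxo1 rdr6. In Col-0, 67.4% and 71.7% of its counts were of 21 or 22 nt, the lengths that guide cleavage of RNA, and 0 to 1.24% lay on the f strand, so its small RNAs were almost all of 1 strand. Only 3 counts stood behind its value in the library labelled dxo1 replicate 2, and the call was lost in 1 of 14 alternatives, without Col-0 replicate 2. AT1G27290 rose from 6.07 and 6.12 CPM to 35.9 and 36.3 CPM, by 1.68 ± 0.385 (edgeR adjusted p = 0.0083), of which the second dxo1 value rests on 5 counts. This call was lost in 6 of 14 alternatives, among them DESeq2, the replicate block and each Col-0 library left out. Without the replicate 1 library of dxo1, 0 members were higher and 3 lower. With library totals alone 12 were higher and 1 lower, since that scaling moved the median log2 change of all transcripts from -0.31 to 0.53.

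Between dxo1 rdr6 and dxo1, 13 members were higher and 14 lower (36.2% of transcripts tested were called, 12.9% higher and 23.3% lower), and between dxo1 rdr6 and Col-0, 7 were higher and 9 lower (31.8% called, 8.62% higher and 23.1% lower). These comparisons share the dxo1 rdr6 libraries. Without the library labelled dxo1 replicate 1, 1 was higher and 4 lower in the first, and 10 higher and 9 lower in the second, whose groups do not hold it but share its estimate of spread. With library totals alone the second split was 50 higher and 5 lower, as the median log2 change of all transcripts moved from 0.02 to 1.09. The lower members by lowest p were AT2G14460, AT3G10020, AT4G10890 and AT4G31980 in both, with AT3G52070 in the first, which had 0 counts in dxo1 rdr6, and AT1G35320 in the second. AT4G10890 fell by a log2 change of -4.50 against dxo1 and -6.29 against Col-0. AT2G14460 read 26.3 and 27.2 CPM in Col-0, 36.4 and 72.7 CPM in dxo1 and 5.03 and 0.645 CPM in dxo1 rdr6. AT3G10020, among the 5 members of highest mean GMUCT level, read 15.5 and 17.4 CPM, 22.6 and 65.4 CPM, and 5.74 and 3.22 CPM.

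The higher members were led by RBCS2B, at 53.2 and 62.9 CPM in Col-0, 44.4 and 36.3 CPM in dxo1 and 289 and 237 CPM in dxo1 rdr6, with 92.55% or more of its counts on the f strand in each library, and by PSBW, SDH4, AT2G41650 and AT3G02480, with log2 changes of 1.36 to 2.46 against dxo1. AGP1, GRP3S, AT2G19750, AT4G16450 and AT5G13440 led the rises against Col-0, with log2 changes of 1.3 to 2.1. In dxo1 rdr6, 25 nt reads made up 87.5 to 100% of the counts of each of these higher members. With reads of 20 to 24 nt alone, RBCS2B kept its call against dxo1 and GRP3S its call against Col-0, and the others were not tested. The GRP3S call then rested on 4 and 5 counts in Col-0 and 4 and 6 in dxo1 rdr6. At these lengths GRP3S lost its call against dxo1. With DESeq2, RBCS2B kept its call against dxo1, and AGP1 and AT2G19750 kept theirs against Col-0, while the others lost theirs. When only reads of 20 to 24 nt were counted, AT1G35320, which had fallen by a log2 change of -3.36 against Col-0, stood at 291 and 303 CPM in Col-0 and at 336 and 521 CPM in dxo1 rdr6, and its fitted change was 0.0485. AT4G10890 still stood at 1060 and 1052 CPM against 144 and 235 CPM. In the dxo1 rdr6 contrasts the direction for a member thus depended on whether 25 nt reads were counted, in AT1G35320 but not in AT4G10890, and what sets those libraries apart was not tested.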

How the data were processed

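Reads were trimmed with cutadapt, aligned with STAR 2.4.2a to TAIR10 and counted with HTSeq, per the submitters' processing notes; settings, and the tool behind the small RNA tables, are not given in the sources used here. The deposited values are raw counts, per gene for NAD capture, total RNA, polyA RNA and GMUCT, and per transcript model, strand and length for small RNA, which were summed here. Entries for unassigned reads, left out, held 91.8 to 96.1% of NAD capture, 90.8 to 91.2% of total RNA, 20.3 to 21.8% of polyA and 18.2 to 28.3% of GMUCT counts. Symbols, gene types and spans came from RefSeq, assembly TAIR10.1, so no coordinates are printed, and promoter and protein sequences were not used here.

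Analyses used R 4.3.3, edgeR 4.0.16, DESeq2 1.42.0, Python 3.11.15, pandas 2.3.3 and scipy 1.17.1. Genes were kept by filterByExpr (minimum count 10) and scaled by TMM, and edgeR's quasi-likelihood test was fitted to the 8 capture and total RNA, 4 polyA, 6 GMUCT and polyA, and 6 small RNA libraries. A standard error is approximate: the size of the log2 change divided by the root of its F statistic. Libraries of a group were not copies (chi-square per degree of freedom 2.26 to 33.7). The scripts were tested on simulated data.

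The members and lists were chosen with earlier results of these data known. Genes were named by rule: the 15 highest smallest ratios, 3 members inside and 3 genes outside the limit, the 5 highest and 5 lowest in GMUCT, the 5 highest in small RNA, up to 5 called members of lowest p per direction and contrast, up to 4 members per list (or else its gene of highest smallest ratio), DXO1 and RDR6. RAT5, GAD5, ATG8C, SWEET8, BZIP60, LCR17, PGA4, AT3G01250, AT4G05070, AT1G75190, the adjacent pairs and MIR162a fall outside it and were chosen after their values were seen. Alternatives were other scalings, DESeq2, no filter on low counts, a replicate block, each library left out, the dxo1 replicate 1 libraries left out, and other floors, offsets and reference values in the rule.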

Additional observations from a re-analysis of the deposited data

How the results depend on the processing

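Of the 150 members, 130 to 148 were chosen again with offsets of 0 or 1 in place of 0.5, CPM over all gene counts or TMM scaling. With a floor of 1 CPM in polyA RNA 67 were, with a floor of 10 CPM 84, and with the lower capture and higher reference library of each group 75. With 1 library left out, 87 to 149 were, 87 without Col-0 capture replicate 2. The counts of calls that follow lack the share of all genes called under the same setting. They show how the member count moved, and not whether it lay above or below that share. In NAD capture the 3 calls became 0 with library totals alone, 12 with DESeq2, 28 with no filter, 0 without the dxo1 replicate 1 libraries and 0 to 50 with 1 library left out (50 without Col-0 capture replicate 1, 32 without replicate 2). In total RNA the 1 call became 0, 4, 22, 0 and 0 to 30 in the same order. For the genotype difference in capture 0 became 13 with no filter and 0 to 35 with 1 library left out (35 without Col-0 capture replicate 2). In polyA RNA 44 became 67 without the dxo1 replicate 1 library and 11 to 71 with 1 left out. The 103 GMUCT calls ranged from 91 to 106 with 1 left out. For small RNA, dxo1 over Col-0, 2 calls became 13 with library totals alone, 1 with DESeq2 and 0 to 11 with 1 left out. For dxo1 rdr6 over dxo1, 27 became 7 with DESeq2, 5 without the dxo1 replicate 1 library and 5 to 35 with 1 left out. For dxo1 rdr6 over Col-0, 16 became 55 with library totals alone, 8 with DESeq2 and 8 to 35 with 1 left out. Chosen after seeing the data, counting only reads of 20 to 24 nt gave 7, 6 and 12 in these contrasts, and halving the even dxo1 rdr6 counts, which lowers the number of transcripts past the filter, gave 8, 24 and 27. Over the called members 3 genes changed direction, all in dxo1 rdr6 contrasts and none past the threshold there: with 20 to 24 nt reads AT1G35320 (log2 change 0.0485 over Col-0 and 0.20 over dxo1) and AT4G05070 (0.0079 over dxo1), and without the dxo1 replicate 1 library AT1G75190 over dxo1, which then had 0 counts in dxo1. The causes were not tested. With the replicate number as a block the calls were 3 in NAD capture, 0 in total RNA and 0 for the genotype difference in capture. In polyA RNA they were 50, in GMUCT 112, and in small RNA 1, 19 and 13. Replicate differences of groups correlated at -0.0583 to 0.093, so for these groups the numbers are not shown to pair libraries. The exception was GMUCT with polyA RNA in dxo1, at 0.538, where the replicate numbers went together across genes. The main GMUCT fit, with 103 calls, did not use that link. Depth limits the members with fewer than 10 counts in a total RNA (44) or capture library (9) and the small RNA library dxo1 replicate 2, with 360 counts on members.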
